A study of Caenorhabditis elegans with 40 samples.

Results

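Caenorhabditis elegans makes small families of secreted antimicrobial peptides, several of which it switches on in its epidermis after infection or injury. Described here are 10 genes of such families, taken by name from the 42048 features of the deposited tables. They are the caenacin genes cnc-1, cnc-2 and cnc-4, the neuropeptide-like genes nlp-27, nlp-28, nlp-29, nlp-30, nlp-31 and nlp-34, and the defensin-like gene abf-2. Their RNA was followed in 40 whole-animal poly(A) libraries, 5 from each of 8 groups. Old octr-1(ok371) mutants were collected at 15 °C on day 24, at 20 °C on day 14 and at 25 °C on day 9 of adulthood, and young octr-1(ok371) mutants at 20 °C. Wild-type N2 animals made up the matching 4 groups, and all animals were fed Escherichia coli OP50. A comparison of temperatures among old animals therefore also compares days of adulthood. By its title, the series asks how temperature, aging and OCTR-1 are related.

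The nlp peptides of this group are short, rich in glycine and tyrosine, and the caenacins resemble them in makeup. In the epidermis, nlp-29 is known to be induced by the fungus Drechmeria coniospora and by wounding, through the receptor DCAR-1, the G protein GPA-12, phospholipase C, the protein kinase C TPA-1, the adaptor TIR-1, the p38 cascade NSY-1, SEK-1 and PMK-1, and the transcription factor STA-2 with its partner SNF-12. cnc-2 is known to depend instead on the TGF-beta ligand DBL-1. Loss of the collagens that form the furrows of the cuticle is known to induce nlp-29. abf-2 encodes a defensin-like peptide described in the pharynx and intestine. OCTR-1 is an octopamine receptor of neurons, coupled to G proteins and known for its part in neural control of immunity.

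The libraries held 27.9 to 41.0 M reads assigned to genes. octr-1 itself averaged 0.512 counts per M assigned reads (CPM) in young mutants, against 1.77 CPM in the young wild type, and 0.902 to 1.27 CPM in the old mutant groups, against 5.50 to 6.45 CPM in the old wild-type groups. Levels below are CPM scaled by the trimmed mean of M values (TMM) over the 40 libraries. Single genes are ranked against each other per kilobase of annotated exon, while sums over genes and shares of a sum use CPM without regard to length. The libraries came from whole animals, so they do not show in which tissue a read arose, and fewer cells of a type cannot be told apart from less RNA per cell. None of the 12 epidermal marker genes examined was at 0 in any group, and neither was any of the 6 pharyngeal or 6 intestinal ones. Whether the replicates of a group were separate cultures is not in the labels. The p-values therefore rest on variation among the libraries at hand, and that variation could be technical only. How reads matching several genes were counted is not stated, so single values of nlp-27 to nlp-31 and of the cnc genes, which have close relatives, are uncertain.

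Across the groups, the set was dominated by nlp-27 in young animals and shared among more genes in old ones. The 10 genes summed to 81.9 ± 14.7 CPM in young mutants and 72.6 ± 3.85 CPM in the young wild type (SD, n = 5 each). In old animals the sums were 111 ± 16.5 CPM in mutants at 15 °C against 196 ± 13.1 CPM in the wild type, 235 ± 11.4 CPM against 224 ± 18.7 CPM at 20 °C, and 218 ± 14.8 CPM against 265 ± 13.1 CPM at 25 °C. nlp-27 supplied 66.1% of the sum in young mutants and 66.4% in the young wild type. Its share in the old groups lay between 19.7% and 32.5%. Per kilobase, nlp-27 averaged 224 CPM in mutants at 25 °C and 187 CPM in the wild type there. abf-2 at 25 °C averaged 133 CPM per kilobase in mutants and 276 CPM per kilobase in the wild type, which placed it above nlp-27 in the wild type and below it in mutants. nlp-30 was the lowest of the nlp genes per kilobase in every group, with 0.784 to 4.29 CPM per kilobase.

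**Figure D1:**
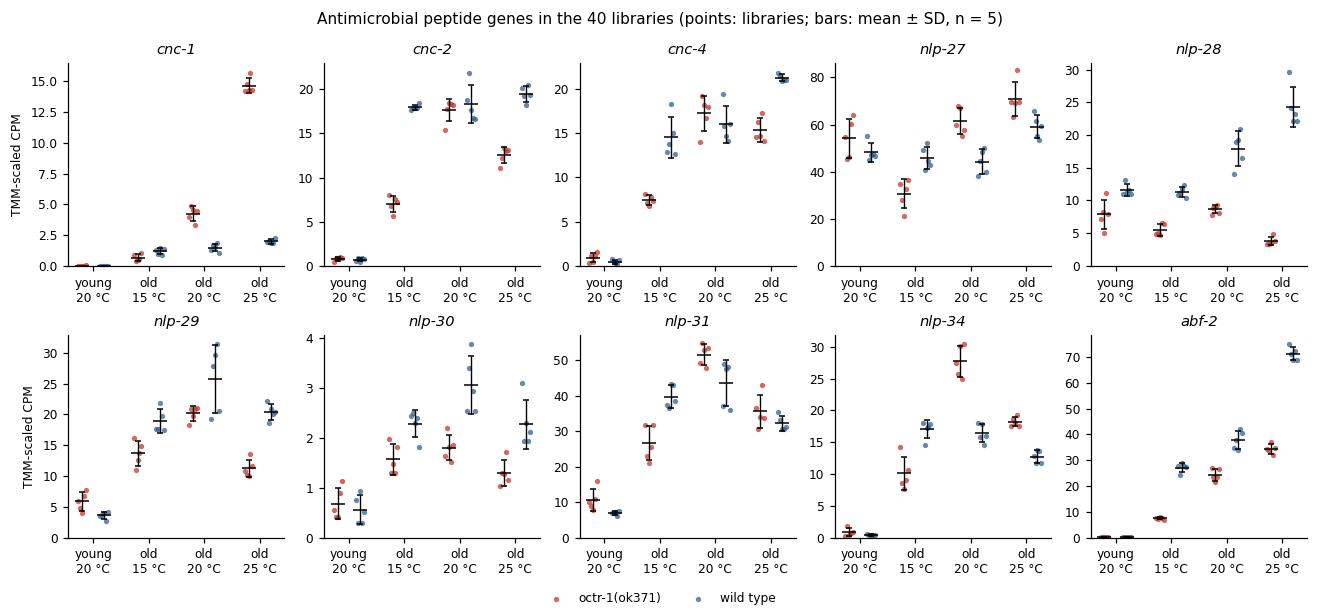
TMM-scaled CPM of each of the 10 genes in the 40 libraries, with 1 panel per gene, octr-1 mutants beside the wild type within each condition, points for libraries and bars for mean ± SD (n = 5). The 5 cnc-1 points of mutants at 25 °C lie between 14.2 and 15.7 CPM, above all other cnc-1 points, and the abf-2 points of the wild type at 25 °C lie between 68.7 and 74.9 CPM.

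At 15 °C all 10 genes were lower in old octr-1 mutants than in the old wild type. All 10 passed a Benjamini-Hochberg adjusted p of 0.05 in limma, where 27% of the genes tested were called lower and 51.1% were called in either direction. Their median log2 fold change was -0.83, beside -0.01 over all genes tested. For 8 of the 10 the groups did not overlap, as was so for 35.2% of all genes tested. The exceptions were cnc-1 and nlp-30, both with overlapping groups.

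Of the caenacins at 15 °C, cnc-2 had 7.98, 6.73, 5.61, 7.54 and 7.21 CPM in the mutant libraries, against 17.6, 17.9, 17.9, 17.9 and 18.4 CPM in the wild-type libraries. The highest mutant library was below the lowest wild-type one by a wide margin, and the log2 fold change was -1.36 ± 0.08 (SE, adjusted p = 2.48e-10). cnc-4 had 8.11, 7.11, 6.72, 7.75 and 7.30 CPM in mutants, against 12.8, 13.8, 18.3, 15.0 and 12.6 CPM in the wild type. These groups were apart too, and the log2 fold change was -0.96 ± 0.09 (adjusted p = 1.10e-07). cnc-1 was low in both groups, with 0.356 to 1.04 CPM in mutants and 0.910 to 1.45 CPM in the wild type. Its log2 fold change was -0.88 ± 0.25 (adjusted p = 0.00593), and mutant replicate 5 lay within the wild-type range.

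nlp-34, at one end of the nlp cluster, had 14.3, 8.65, 7.69, 9.13 and 10.7 CPM in mutants, against 18.1, 14.6, 17.2, 17.4 and 17.9 CPM in the wild type. Mutant replicate 1 was the highest of its group and came close to wild-type replicate 2, the lowest of its own. The log2 fold change was -0.78 ± 0.14 (adjusted p = 6.61e-04). nlp-31 had 31.7, 23.1, 21.1, 25.6 and 31.7 CPM in mutants, against 37.4, 36.4, 43.2, 43.1 and 38.5 CPM in the wild type, a log2 fold change of -0.59 ± 0.11 (adjusted p = 0.00102). nlp-29, the gene best known as a reporter of epidermal injury, had 16.2, 10.9, 12.6, 13.8 and 14.8 CPM in mutants, against 17.7, 17.7, 21.9, 19.8 and 17.4 CPM in the wild type. No library of either gene crossed into the other group. The log2 fold change of nlp-29 was -0.47 ± 0.09 (adjusted p = 5.68e-04), and that of nlp-27 was -0.60 ± 0.14 (adjusted p = 0.00645). nlp-28 had 4.76 to 6.55 CPM in mutants and 10.4 to 12.4 CPM in the wild type, the widest gap of the nlp genes at this temperature (-1.04 ± 0.09).

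abf-2 fell furthest of the 10 at 15 °C, with 7.57, 7.17, 8.10, 7.54 and 6.90 CPM in mutants, against 27.7, 24.4, 28.8, 27.6 and 27.2 CPM in the wild type. The spread within each group was small beside the gap between them, and the log2 fold change was -1.86 ± 0.06 (SE, adjusted p = 9.65e-14). On the opposite strand, abf-2 is overlapped in the Ensembl WBcel235 annotation by C50F2.2, and whether counting used the strand is not stated. C50F2.2 averaged 134 ± 4.82 CPM in mutants and 116 ± 4.66 CPM in the wild type at 15 °C (SD, n = 5 each), the other way round from abf-2. In young animals C50F2.2 averaged 135 CPM in mutants and 144 CPM in the wild type, where abf-2 averaged 0.180 and 0.208 CPM. The part of C50F2.2 reads in the abf-2 values was not tested. All 6 intestinal markers were called lower in mutants at 15 °C, with summed levels of 44.6 to 62.9 CPM against 81.4 to 97.6 CPM in the wild type. The 6 pharyngeal markers summed to 22.2 to 26.4 CPM in mutants and 30.1 to 34.2 CPM in the wild type, with 1 called higher and 2 lower. Of the 12 epidermal markers, 4 were called higher and 3 lower of 11 tested, and their summed level was 311 to 329 CPM in mutants against 276 to 297 CPM in the wild type. Of the 6 neuronal markers 5 were higher, with sums of 309 to 323 CPM in mutants and 262 to 305 CPM in the wild type, and of the 6 germline markers 3 were higher. The part of these markers in the result was not tested.

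In old animals at 20 °C differences ran in both directions. In mutants, cnc-1, nlp-27, nlp-31 and nlp-34 were higher and nlp-28, nlp-30 and abf-2 were lower than in the wild type. These are 4 higher and 3 lower of 10, where 22.8% of all genes tested were called higher, 24.7% lower and 47.5% in either direction. The median log2 fold change of the 10 was 0.05. For 6 of them the groups did not overlap, beside 32.8% of all genes.

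At 20 °C cnc-1 had 3.98, 4.90, 4.57, 3.35 and 4.43 CPM in mutants, against 1.30, 1.68, 1.51, 1.87 and 1.07 CPM in the wild type. The lowest mutant library stood above the highest wild-type one, and the log2 fold change was 1.53 ± 0.14 (SE, adjusted p = 2.95e-08). nlp-34 had 27.4, 25.7, 30.1, 25.0 and 30.4 CPM in mutants, against 18.0, 15.9, 17.8, 14.6 and 16 CPM in the wild type. Here too the groups were apart, with a log2 fold change of 0.77 ± 0.07 (adjusted p = 2.04e-08). nlp-27 rose by a log2 fold change of 0.50 ± 0.07 (adjusted p = 3.59e-05), with 55.1 to 68.0 CPM in mutants and 38.2 to 50.2 CPM in the wild type. nlp-31 was higher by 0.28 ± 0.08 on the log2 scale with overlapping groups (adjusted p = 0.0103), a call that was lost when all 40 libraries were fitted together (adjusted p = 0.0687).

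Lower in mutants at 20 °C was nlp-28, with 7.85, 8.91, 9.00, 9.27 and 8.14 CPM against 14.0, 18.9, 19.2, 21 and 16.5 CPM in the wild type. Its groups did not overlap, and its log2 fold change was -1.02 ± 0.09 (adjusted p = 2.19e-08). nlp-30, with 1.52 to 2.19 CPM in mutants and 2.54 to 3.89 CPM in the wild type, fell by 0.73 on the log2 scale (SE 0.13, adjusted p = 1.41e-04). abf-2 had 26.8, 23.6, 21.5, 23.3 and 26.7 CPM in mutants, against 34.7, 37.9, 33.8, 42.0 and 40.7 CPM in the wild type. Its mutant libraries were all below the wild-type ones, with a log2 fold change of -0.61 ± 0.07 (adjusted p = 6.69e-07). The difference of cnc-2 was -0.03 (95% interval -0.18 to 0.12) and that of cnc-4 was 0.13 (-0.05 to 0.31), and neither passed the test. nlp-29 did not pass either, at -0.30 (-0.56 to -0.04, adjusted p = 0.0532). It passed without wild-type replicate 1 or without wild-type replicate 5, in edgeR with TMM (-0.32, adjusted p = 0.0471), with the replicate block (-0.30, adjusted p = 0.00797) and in the fit of all 40 libraries (-0.35, adjusted p = 0.0145). Of the marker genes at 20 °C, 1 of 11 epidermal ones tested was higher and 2 lower, and of the 6 intestinal ones 2 were higher and 3 lower.

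At 25 °C the largest differences of the set stood in opposite directions in cnc-1 and nlp-28. All 10 genes were called, 4 higher and 6 lower in mutants. Of all genes tested 76.5% were called, 36.8% higher and 39.7% lower, so the count itself is not far from the background. The median log2 fold change of the 10 was -0.54, beside -0.01 over all genes. For 8 of the 10 the groups did not overlap, beside 62.8% of all genes.

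cnc-1 had 14.2, 14.8, 14.3, 15.7 and 14.3 CPM in mutants at 25 °C, against 1.97, 2.06, 1.86, 1.82 and 2.30 CPM in the wild type. The libraries of each group lay close together and far from the other group, at 7.33-fold or a log2 fold change of 2.87 ± 0.07 (SE, adjusted p = 1.27e-20). Without regard to length, mutants at 25 °C averaged 14.7 CPM of cnc-1, 12.6 CPM of cnc-2 and 15.3 CPM of cnc-4. The annotated exons span 189 bases for cnc-1, 354 for cnc-2 and 435 for cnc-4, and the next ranking rests on these lengths. Per kilobase, cnc-1 averaged 77.6 CPM in mutants at 25 °C, above cnc-2 with 35.5 CPM and cnc-4 with 35.2 CPM. In the wild type at 25 °C cnc-1 was instead the lowest of the caenacins, with 10.6 CPM per kilobase beside 55.0 for cnc-2 and 48.8 for cnc-4. cnc-2 had 11.1, 12.2, 13.4, 13.0 and 13.1 CPM in mutants, against 20.1, 19.2, 18.2, 20.5 and 19.3 CPM in the wild type, a log2 fold change of -0.62 ± 0.05 (adjusted p = 2.10e-10). cnc-4 fell by 0.46 on the log2 scale (SE 0.05, adjusted p = 2.08e-08), with 14.1 to 17.2 CPM in mutants and 20.9 to 21.8 CPM in the wild type. Summed over the 3 caenacins, mutants at 25 °C had 42.5 CPM and the wild type 42.7 CPM.

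nlp-28 had 3.37, 3.27, 3.53, 4.89 and 3.81 CPM in mutants at 25 °C, against 29.7, 24.1, 22.2, 23.3 and 22.2 CPM in the wild type. The highest mutant library, replicate 4, was far below the lowest wild-type one, and mutants were 6.36-fold lower (log2 fold change -2.67 ± 0.09, adjusted p = 9.45e-16). nlp-29 had 10.8, 10.2, 9.95, 13.5 and 11.7 CPM in mutants, against 22.1, 18.6, 20.9, 20.1 and 20.4 CPM in the wild type, a log2 fold change of -0.85 ± 0.07 (adjusted p = 6.56e-11). nlp-30 fell by 0.78 (SE 0.14, adjusted p = 3.02e-05). nlp-34 went the other way, with 17.6, 18.6, 18.0, 19.3 and 17.6 CPM in mutants, against 12.9, 11.7, 13.7, 13.6 and 11.7 CPM in the wild type. Its groups did not overlap, and its log2 fold change was 0.53 ± 0.05 (adjusted p = 3.39e-09). nlp-27 was higher by 0.28 ± 0.06 (adjusted p = 5.03e-04) and nlp-31 by 0.15 ± 0.06 (adjusted p = 0.0381), both with overlapping groups. The call of nlp-31 was lost without any 1 of wild-type replicates 3, 4 and 5 or mutant replicates 1 and 4, and in the fit of all 40 libraries.

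abf-2 at 25 °C had 34.3, 33.6, 37.1, 32 and 34.6 CPM in mutants, against 74.9, 71.1, 68.7, 72.5 and 69.0 CPM in the wild type. These groups were far apart, with a log2 fold change of -1.04 ± 0.04 (SE, adjusted p = 2.74e-17). The overlapping gene C50F2.2 averaged 89.3 ± 3.07 CPM in mutants and 121 ± 3.44 CPM in the wild type (SD, n = 5 each), the same direction as abf-2. Of the 12 epidermal markers, 9 were called lower and 2 higher in mutants at 25 °C, and their summed level was 204 to 212 CPM against 268 to 283 CPM in the wild type. All 6 pharyngeal markers were called higher, with sums of 113 to 127 CPM in mutants and 49.8 to 57.6 CPM in the wild type. Of the 6 intestinal markers 5 were called lower, with sums of 147 to 160.2 CPM in mutants and 226 to 242 CPM in the wild type. Of the 6 germline markers 5 were called lower and 1 higher, with sums of 2184 to 2261 CPM in mutants and 3103 to 3306 CPM in the wild type. The part of these markers in the differences of the peptide genes was not tested. Scaling by library size alone shifted the median of all genes at 25 °C by 0.21 on the log2 scale, and no member changed direction in that comparison under it.

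**Figure D2:**
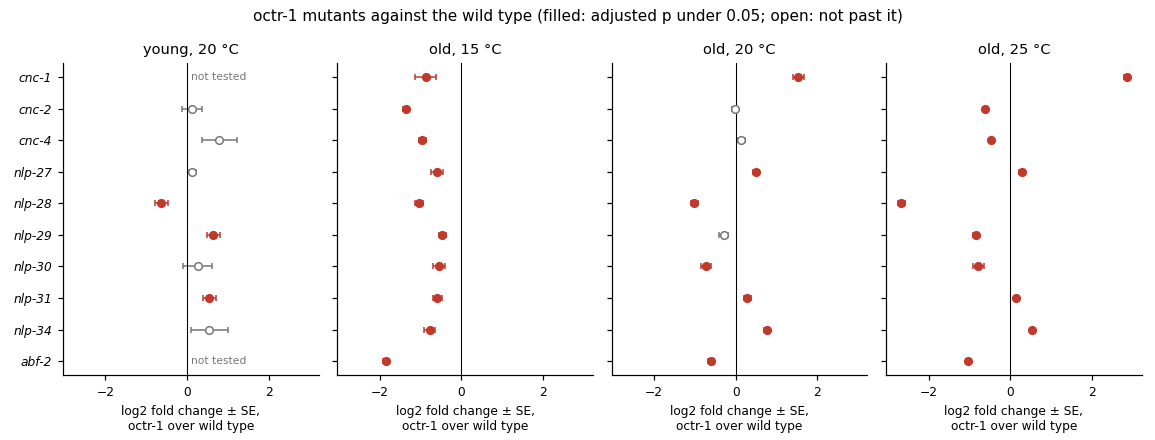
Log2 fold change ± SE of octr-1 mutants over the wild type for the 10 genes, with 1 panel per condition, filled points for an adjusted p under 0.05 and open points otherwise. In old animals at 15 °C all 10 points lie left of 0, while at 25 °C cnc-1 stands at 2.87 and nlp-28 at -2.67.

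In young adults at 20 °C nlp-29 and nlp-31 were higher and nlp-28 was lower in mutants. cnc-1 and abf-2 did not pass the filter on low values, and the 3 genes are therefore 2 higher and 1 lower of 8 tested. Of all genes tested 43.6% were called, 19.6% higher and 24.0% lower. Groups did not overlap for 2 of the members, beside 27.1% of all genes. nlp-28 had 7.23, 8.24, 4.99, 11.2 and 7.94 CPM in young mutants, against 11, 13.1, 11.3, 11.6 and 11 CPM in the young wild type. In CPM, mutant replicate 4 overlapped the wild type, while in the values of the deposited table the groups did not overlap, and the log2 fold change was -0.63 ± 0.16 (SE, adjusted p = 0.00769). nlp-31 had 9.88, 8.77, 7.67, 10.8 and 15.8 CPM in mutants, against 6.84, 6.78, 7.32, 5.95 and 7.39 CPM in the wild type. All mutant libraries were above the wild type, replicate 5 most of all, and the log2 fold change was 0.54 ± 0.16 (adjusted p = 0.0131). nlp-29 was higher by 0.64 ± 0.16 (adjusted p = 0.00511), with 4.0 to 7.76 CPM in mutants and 2.73 to 4.13 CPM in the wild type. The groups of nlp-29 overlapped. Leaving out mutant replicate 1 added cnc-4 and nlp-34, so that 4 genes were called higher, and cnc-4 was also called in the fit of all 40 libraries (0.94, adjusted p = 0.0343). Of the 12 epidermal markers, 8 were called higher and 1 lower in young mutants, with a median of 0.40 and sums of 274 to 299.8 CPM in mutants against 272 to 281 CPM in the wild type. All 6 germline markers were called lower, with sums of 6661 to 7199 CPM in mutants and 7395 to 7986 CPM in the wild type. The part of these markers in the differences of young animals was not tested.

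Whether the genotype difference itself changed between conditions was tested as an interaction on recovered reads with edgeR. The interactions share libraries, so their calls are not independent of each other. Between 15 and 20 °C it changed in 7 of the 10 genes, all towards lower values in mutants at 15 °C, where 20.3% of all genes tested were called and 12.4% in that direction. The interaction was -2.38 ± 0.28 for cnc-1 (log2 ± SE, adjusted p = 2.11e-07), -1.54 ± 0.16 for nlp-34 (3.81e-07), -1.34 ± 0.11 for cnc-2 (1.46e-10) and -1.27 ± 0.10 for abf-2 (4.10e-11). It was -1.11 ± 0.14 for cnc-4, -1.10 ± 0.17 for nlp-27 and -0.86 ± 0.15 for nlp-31. nlp-28, nlp-29 and nlp-30 did not pass, with 95% intervals of -0.30 to 0.26, -0.52 to 0.22 and -0.20 to 0.61.

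Between 25 and 20 °C the genotype difference changed in 7 genes, 1 higher and 6 lower, where 54.5% of all genes tested were called, 28% higher and 26.5% lower. It moved up by 1.40 ± 0.16 in cnc-1 (log2 ± SE, adjusted p = 4.29e-09) and down in nlp-28 by -1.60 ± 0.16 (6.10e-09). cnc-2 and cnc-4, which hardly differed between genotypes at 20 °C, each moved by -0.54 (adjusted p = 7.73e-06 and 6.53e-05). The interaction of nlp-34 was -0.21 ± 0.09 (adjusted p = 0.0469). It was lost under limma, library size scaling, the replicate block and the fit of all 40 libraries, and without single libraries of several groups. Between 15 and 25 °C, 9 of 10 genes were called, 2 higher and 7 lower, where 57.0% of all genes tested were called, 26.6% higher and 30.4% lower. cnc-1 had the largest value, -3.73 ± 0.22 (adjusted p = 1.03e-15), and nlp-28 was positive, at 1.62 ± 0.15 (adjusted p = 9.84e-10). Between old and young animals at 20 °C only nlp-29 and nlp-30 of the 10 were called, at -1.02 ± 0.24 (adjusted p = 0.00354) and -1.05 ± 0.36 (0.0321). Of all genes 27.6% were called, 11% higher and 16.6% lower. cnc-1 and abf-2 had too few reads in young animals to be tested between genotypes there. Whether their genotype difference changed with age therefore cannot be told. The call of nlp-30 was lost under limma and on leaving out any 1 of 8 single libraries, of young wild-type replicates 2, 4 and 5, old wild-type replicates 2 and 3, young mutant replicates 4 and 5 and old mutant replicate 4. nlp-27 was also called under RLE, limma and DESeq2, and nlp-28 with the replicate block (-0.44, adjusted p = 0.0336), library size scaling and all 40 libraries. Leaving out 1 library also gave a call of nlp-27, for wild-type replicates 3 and 4 and mutant replicate 4 of the old and mutant replicates 4 and 5 of the young, and of nlp-28, for old wild-type replicate 1 and young mutant replicate 3.

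The 6 nlp genes lie side by side on chromosome V in the order nlp-34, nlp-31, nlp-30, nlp-29, nlp-28 and nlp-27 in the RefSeq WBcel235 annotation. At 25 °C the genotype difference changed sign along this row: it was positive at nlp-34 and nlp-31, negative at nlp-30, nlp-29 and nlp-28, and positive at nlp-27. In old animals at 20 °C the signs ran the same way, although the value of nlp-29 did not pass the test. This pattern of signs was read from the values and was not tested. The comparisons at 25 and at 20 °C share no libraries, but they share both strains and the uncertain counting of reads among close relatives. The calls of nlp-31 at 25 and at 20 °C were lost when all libraries were fitted together. The sign changes were absent at the lowest temperature, where all 6 nlp genes were lower in mutants. In young animals nlp-30 (log2 fold change 0.26, not called) and nlp-29 (0.64, called) were positive, while the other signs ran as at 25 °C. The cnc genes also lie together on chromosome V, in the order cnc-11, cnc-1, cnc-5, cnc-4, cnc-3 and cnc-2, of which 3 of 6 are members. At 25 °C, cnc-11 was higher in mutants by 1.04 and cnc-3 by 0.75 on the log2 scale, while cnc-4 and cnc-2 were lower. cnc-11 and cnc-3 were picked out after their values were seen. cnc-11 averaged 0.513 ± 0.134 CPM in mutants at 25 °C and 0.243 ± 0.0859 CPM in the wild type (SD, n = 5 each), and cnc-3 averaged 13.6 ± 1.36 CPM and 8.16 ± 1.02 CPM. abf-2 lies on chromosome I beside abf-1.

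**Figure D3:**
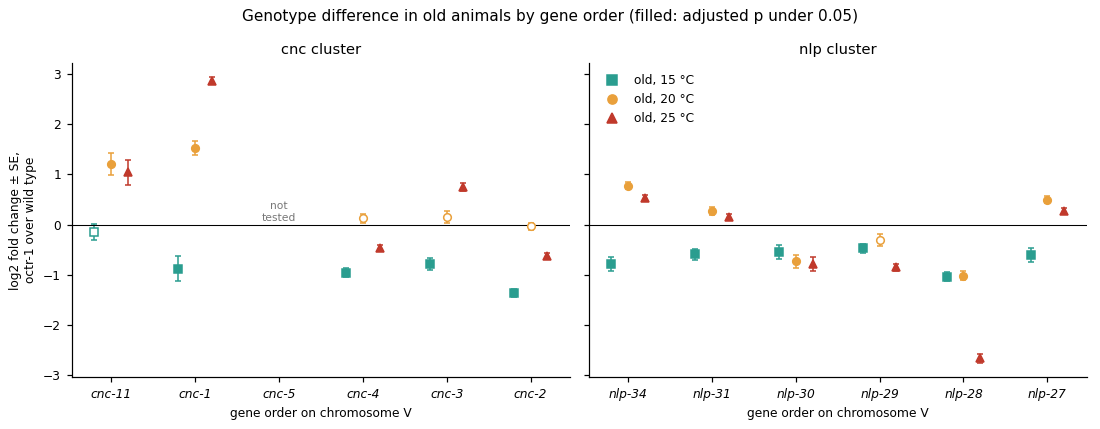
Log2 fold change ± SE of octr-1 mutants over the wild type in old animals, with genes in their order along the cnc and nlp clusters of chromosome V, 1 mark per temperature and filled points for an adjusted p under 0.05. At 25 °C the nlp row runs from 0.53 at nlp-34 through -2.67 at nlp-28 to 0.28 at nlp-27.

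Temperature groups of old animals were compared within each genotype, each with its own day of adulthood. In mutants, 9 of the 10 genes were lower at 15 °C than at 20 °C, where 66.5% of all genes tested were called and 34.8% were lower, and the median of the 10 was -1.11 on the log2 scale beside 0.00 over all genes. The gene not called was nlp-30, at -0.20 (95% interval -0.49 to 0.09). The groups of the other 9 did not overlap, beside 52.3% of all genes. cnc-1 was lower at 15 °C by a log2 fold change of -2.71 ± 0.23 (SE, adjusted p = 8.47e-08), abf-2 by -1.70 ± 0.07 (3.35e-14) and nlp-34 by -1.48 ± 0.14 (4.02e-06). In the wild type 4 of 10 were lower at 15 °C than at 20 °C, where 63.9% of all genes were called, 30.5% higher and 33.4% lower, and the median was -0.21. Called were nlp-28 at -0.63 ± 0.09 (adjusted p = 5.47e-06), abf-2 at -0.45 ± 0.06 (5.03e-06), nlp-29 at -0.40 ± 0.13 (0.02) and nlp-30 at -0.39 ± 0.13 (0.015). Groups did not overlap for 2 of the 10, beside 49.1% of all genes. The call of nlp-30 was lost without wild-type replicate 3 at 20 °C. nlp-29 was not called when no filter on low values was used. Markers of other tissues moved in these comparisons as well. In mutants at 15 against 20 °C all 6 intestinal markers were lower, with sums of 44.6 to 62.9 CPM against 180.4 to 202 CPM, 4 of 6 pharyngeal ones were lower, and all 6 neuronal ones were higher. Wild-type animals had all 6 intestinal markers lower at 15 °C, with sums of 81.4 to 97.6 CPM against 175 to 199 CPM, 5 of 6 pharyngeal ones were lower, and all 6 neuronal ones were higher. Of the 11 epidermal markers tested, 3 were higher and 3 lower in mutants, and 2 were higher and 2 lower in the wild type. Their part in the temperature differences was not tested, here or below.

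Between 15 and 25 °C, mutants had 7 genes lower and 2 higher at 15 °C, where 78.9% of all genes tested were called, 40.4% lower and 38.6% higher. Groups did not overlap for 6 of the 10, beside 67.1% of all genes. cnc-1 was lower by -4.50 ± 0.24 (log2 ± SE, adjusted p = 1.86e-09) and abf-2 by -2.20 ± 0.06 (1.11e-18), while nlp-28 was higher at 15 °C by 0.54 ± 0.12 (2.35e-04) and nlp-29 by 0.28 ± 0.10 (0.0122). The call of nlp-29 was lost under library size scaling. In the wild type 5 were lower and 2 higher at 15 °C, where 79.0% were called, 40.8% lower and 38.2% higher. Groups did not overlap for 7 of the 10, beside 67.4%. abf-2 was lower there by -1.37 ± 0.04 (adjusted p = 2.44e-17), nlp-28 by -1.07 ± 0.07 (2.38e-11) and cnc-1 by -0.74 ± 0.15 (9.76e-05), and nlp-31 and nlp-34 were higher by 0.33 ± 0.05 and 0.44 ± 0.06. At 15 against 25 °C all 6 intestinal markers were lower and all 6 neuronal ones higher in both genotypes. All 6 pharyngeal markers were lower in mutants and 5 in the wild type, and the epidermal markers were 6 higher and 0 lower of 10 tested in mutants and 4 higher and 5 lower of 12 in the wild type. Comparisons of 1 temperature with the other temperatures share its libraries.

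At 25 °C against 20 °C, mutants had 3 genes higher and 7 lower, where 74.6% of all genes tested were called, 37.3% higher and 37.4% lower. Groups did not overlap for 7 of the 10, beside 60.7% of all genes. cnc-1 was higher at 25 °C by 1.78 ± 0.08 (log2 ± SE, adjusted p = 1.59e-16) and abf-2 by 0.48 ± 0.05 (1.81e-08), and nlp-28 was lower by -1.22 ± 0.09 (5.94e-12) and nlp-29 by -0.87 ± 0.07 (1.32e-11). In that table the column names were exchanged between groups, and with the names as given each sign turns round. cnc-4, at -0.18 ± 0.07 (adjusted p = 0.0264), was lost without any 1 of replicates 2, 3 and 5 at 20 °C or 1, 3 and 5 at 25 °C, or in the fit of all 40 libraries, and its value was 0.0397 under library size scaling. In the wild type 5 were higher and 4 lower at 25 °C in edgeR, where 63.4% of all genes were called, 30% higher and 33.5% lower. Groups did not overlap for 6 of the 10, beside 48.9%. nlp-28 was higher at 25 °C in the wild type by 0.40 ± 0.10 (adjusted p = 0.00264), cnc-4 by 0.38 ± 0.07 (7.63e-05) and abf-2 by 0.88 ± 0.05 (2.16e-11). The call of cnc-1, at 0.40 ± 0.14, was lost without replicate 5 at 20 °C. nlp-31 and nlp-34 were lower at 25 °C in the wild type by -0.46 ± 0.08 and -0.40 ± 0.07. The call of nlp-29, at -0.37 ± 0.13 (adjusted p = 0.0252), was lost without replicate 3 or 4 at 20 °C or replicate 2 at 25 °C, and under library size scaling, the replicate block and no filter. In mutants at 25 against 20 °C all 6 pharyngeal markers were higher, with sums of 113 to 127 CPM against 43.5 to 47.0 CPM, and 8 of 10 epidermal ones tested were lower, with sums of 204 to 212 CPM against 298 to 316 CPM. Among wild-type animals 1 of 6 pharyngeal markers was higher, and of the 12 epidermal ones 6 were higher and 5 lower.

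**Figure D4:**
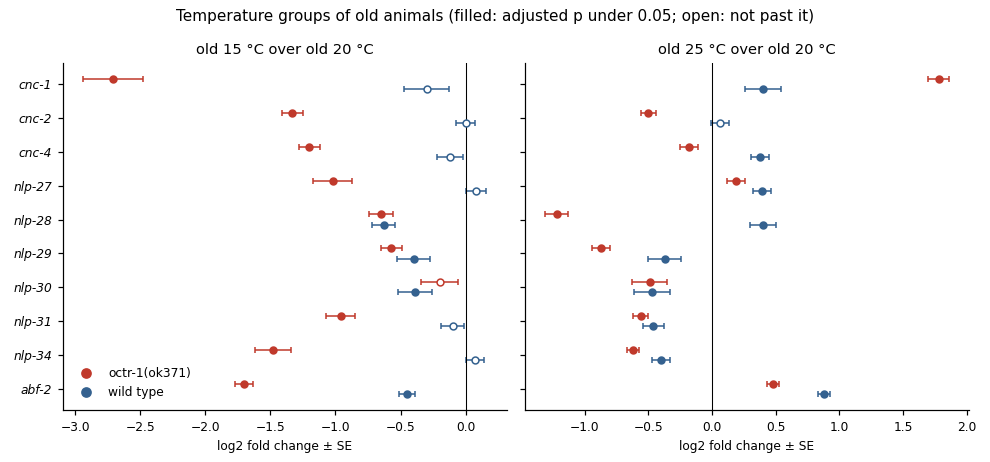
Log2 fold change ± SE of old animals at 15 over 20 °C (left) and 25 over 20 °C (right) for the 10 genes, octr-1 mutants beside the wild type, with filled points for an adjusted p under 0.05. At 15 over 20 °C the mutant values reach -2.71 at cnc-1, while the wild-type values lie between -0.63 and 0.08.

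Old animals at 20 °C had more RNA of most of these genes than young adults, in both genotypes. In the wild type 9 of the 10 were higher in old animals, where 85.1% of all genes tested were called, 45.9% higher and 39.2% lower, and the median log2 fold change was 3.75 beside 0.09 over all genes. In mutants 8 of 10 were higher, where 85.3% were called, 45.1% higher and 40.2% lower, and the median was 3.26 beside 0.07. For 9 genes in the wild type the old and young libraries did not overlap, beside 74.7% of all genes, and for 8 in mutants, beside 75.2%. Leaving out 1 old library lowered the counts to 7 in the wild type and to 6 or 7 in mutants. The filter asks for 10 reads in 5 libraries, and genes with few reads in young animals then no longer pass it. cnc-1 and abf-2 had fewer than 10 reads in every young library and passed the filter only through old animals. Their place as higher in these counts and medians was therefore set by the filter. cnc-4 and nlp-34 in both genotypes, and nlp-30 in the wild type, reached 10 reads in fewer than 5 young libraries. These genes also passed the filter only through old animals, so their place in the counts and medians is not independent of it.

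abf-2 and cnc-1 were almost without reads in young animals. abf-2 had 21.5 to 26.8 CPM in old mutants at 20 °C, against 0.214, 0.0824, 0.289, 0.133 and 0.182 CPM in young mutants. In the wild type it had 33.8 to 42.0 CPM in old animals, against 0.239, 0.0365, 0.402, 0.149 and 0.215 CPM in young ones. Its old-to-young ratio of reads per TMM-scaled depth was 138 in mutants (95% interval 91.9 to 217, counting error only) and 187 in the wild type (126 to 291). Per read assigned to genes, with no TMM scaling, the ratios were 203 in mutants and 278 in the wild type. No young library came near an old one in either genotype. cnc-1 had 0 reads in all 5 young wild-type libraries, and old animals were at least 58.4-fold higher than the 3 reads over the group that a count of 0 allows, per TMM-scaled depth, a bound that was 87.1-fold per read assigned to genes. Young mutants had 1 cnc-1 read in all, in replicate 5. The ratio of old to young mutants was 543 per TMM-scaled depth with a counting interval of 97.5 to 21458, and 801 (144 to 31651) per read assigned to genes.

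Among the other genes, cnc-2 was higher in old mutants by a log2 fold change of 4.42 ± 0.12 (SE, edgeR adjusted p = 2.50e-19) and in the old wild type by 4.66 ± 0.13 (1.88e-17). Its young libraries held 0.428 to 1.03 CPM in mutants and 0.491 to 0.843 CPM in the wild type, all far below the old ones. cnc-4 rose by 4.22 ± 0.22 in mutants and 5.04 ± 0.18 in the wild type, and nlp-34 by 5.07 ± 0.25 and 5.27 ± 0.13. The young wild type held few reads of both, with 57 of cnc-4 and 50 of nlp-34 over the group. For nlp-34 in the wild type the old-to-young ratio was 38.9 per TMM-scaled depth (counting interval 29.5 to 52.5). Per read assigned to genes it was 58.1 (44.0 to 78.2). nlp-31 rose by 2.29 ± 0.15 in mutants and 2.66 ± 0.10 in the wild type. nlp-29 rose by 1.79 ± 0.12 in mutants and 2.83 ± 0.16 in the wild type, 1 of the 2 genes whose interaction with age was called. Young animals were not low in all 10 genes. nlp-27 had 55.1 to 68.0 CPM in old mutants against 45.5 to 64.2 CPM in young ones, and 38.2 to 50.2 CPM in the old wild type against 45.1 to 55.1 CPM in the young. Its differences between old and young were 0.20 (95% interval -0.03 to 0.43) in mutants and -0.13 (-0.29 to 0.02) in the wild type, neither past the test. The value in mutants passed without young mutant replicate 5 or without old mutant replicate 4 or 5. Scaling by library size alone moved the median of all genes by 0.54 in mutants and 0.58 in the wild type, and under it nlp-27 was called higher in old animals of both genotypes, at 0.74 in mutants (adjusted p = 3.24e-05) and 0.45 in the wild type (adjusted p = 3.87e-05). Wild-type nlp-27 was called lower under RLE, DESeq2 and no filter, at -0.16 in each, so its direction depends on the scaling. nlp-28 was higher in the old wild type by 0.62 ± 0.09 (adjusted p = 3.92e-06) and by 0.13 (-0.21 to 0.47) in mutants, which did not pass but was called without young mutant replicate 4 (0.30) and under library size scaling (0.67, adjusted p = 8.94e-04).

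Whole-animal makeup also differed between ages. All 6 intestinal and all 6 germline markers were called lower in old animals of both genotypes, and the intestinal markers summed to 180.4 to 202 CPM in old mutants at 20 °C, against 1189.6 to 1322 CPM in young mutants. The sums of wild-type animals were 175 to 199 CPM in old and 989.8 to 1178 CPM in young animals. The epidermal markers summed to 298 to 316 CPM in old mutants and 274 to 299.8 CPM in young mutants, and to 293 to 331 CPM in the old wild type and 272 to 281 CPM in the young wild type. Of the 12 epidermal markers, 5 were higher and 4 lower in old mutants, and 6 higher and 4 lower in the old wild type. The part of these shifts in the age differences was not tested.

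**Figure D5:**
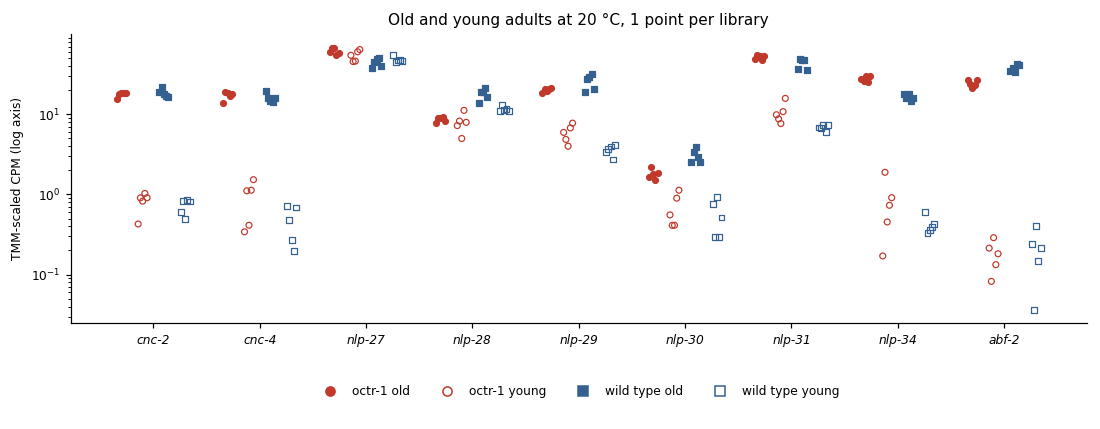
TMM-scaled CPM on a log axis of 9 of the genes in old (filled) and young (open) adults at 20 °C, 1 point per library, with octr-1 mutants left of the wild type. Old points lie above young ones except for nlp-27 in both genotypes and nlp-28 in mutants, and cnc-1 is left out because 9 of the 10 young libraries had 0 reads.

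The remaining family members were read as a list of 18 further cnc, nlp and abf genes. In mutants at 15 °C, 10 of the 13 tested were lower than in the wild type and 0 were higher in limma, with a median of -0.79 on the log2 scale. At 20 °C 2 were higher and 6 lower of 13, with a median of -0.04, and at 25 °C 6 were higher and 7 lower of 14, with a median of -0.32. In young animals 2 were higher and 1 lower of 10. Of all genes tested, 27% were lower at 15 °C and 24.1% higher, 24.7% lower and 22.8% higher at 20 °C, 39.7% lower and 36.8% higher at 25 °C, and 24.0% lower and 19.6% higher in young animals. The count at 25 °C is therefore not far from the background. The 3 with the smallest p at 15 °C were cnc-7 at -1.55, cnc-8 at -1.02 and abf-5 at -1.45. At 20 °C they were cnc-7 at -1.96, nlp-33 at -0.92 and nlp-26 at -1.12. At 25 °C they were cnc-7 at -3.26, abf-5 at 1.28 and nlp-26 at -2.0, and in young animals cnc-10 at 0.67, cnc-8 at 0.37 and nlp-26 at -0.54. cnc-7 averaged 0.443 ± 0.121 CPM in mutants at 25 °C and 4.44 ± 0.551 CPM in the wild type (SD, n = 5 each).

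Genes of the signalling route to nlp-29 were counted in the same way, and the shares over all genes just given hold beside their counts too. Of the 6 genes of the TIR-1 and p38 cascade, 4 were higher and 0 lower in young mutants, 4 higher and 0 lower at 15 °C, 1 higher at 20 °C, and 2 higher and 3 lower at 25 °C. At 15 °C the kinase gene nsy-1 was higher in mutants by 0.46, the kinase gene sek-1 by 0.27 and the pseudokinase gene nipi-3, a regulator of the pathway, by 0.40 on the log2 scale. At 25 °C nsy-1 was lower by -0.43 and the adaptor gene tir-1 by -0.28, and sek-1 was higher by 0.24. In young mutants tir-1 was higher by 0.45, and sek-1 and nsy-1 each by 0.17. Across age, all 6 were higher in old animals at 20 °C, with a median of 0.82 in mutants and 0.99 in the wild type, where 45.1% of all genes were higher in mutants and 45.9% in the wild type. tir-1 averaged 282 ± 9.29 CPM in old mutants and 18.0 ± 1.36 CPM in young mutants, and 304 ± 23.3 CPM in the old and 12.9 ± 1.81 CPM in the young wild type (SD, n = 5 each).

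Upstream, of the 6 genes of the receptor and G protein steps, 2 were higher and 1 lower in young mutants, 2 higher and 2 lower at 15 °C, 3 higher at 20 °C, and 1 higher and 2 lower at 25 °C. egl-8, a phospholipase C gene, was higher in mutants by 0.24 in young animals, 0.31 at 15 °C and 0.28 at 20 °C. dcar-1, the receptor gene, was lower by -0.28 at 15 °C and by -0.12 at 25 °C. Downstream, of the 4 genes of the transcription steps, 2 were higher at 15 °C, 2 at 20 °C and 1 at 25 °C, with 0 lower in any of the 4 genotype comparisons in limma, where 22.8% to 36.8% of all genes were higher in old animals. sta-2 was higher in mutants by 0.22 at 15 °C and by 0.26 at 20 °C, and snf-12 by 0.30 at 20 °C.

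The TGF-beta ligand DBL-1 is known to control cnc-2. Of the 6 genes of the DBL-1 pathway, 1 was higher in young mutants, and 2 were higher and 1 lower at 15 °C. At each of 20 and 25 °C 4 were higher and 0 lower, where 22.8% and 36.8% of all genes were called higher. The receptor gene sma-6 was higher in mutants by 0.50 in young animals, 0.28 at 20 °C and 0.71 at 25 °C. The receptor gene daf-4 was higher by 0.42 at 15 °C and 0.41 at 25 °C, and the Smad gene sma-2 was lower by -0.42 at 15 °C. cnc-2 was lower in mutants at 15 and at 25 °C, as given above. The part of these pathway genes in the cnc-2 differences was not tested.

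The furrow collagen genes were called in both directions. Of the 6, 4 were higher and 0 lower in young mutants with a median of 0.68 on the log2 scale, and 0 were higher and 4 lower at 15 °C with a median of -0.45. At 20 °C 1 was higher and 1 lower, and at 25 °C 1 was higher and 5 were lower, with a median of -0.87. Over all genes tested the median was -0.01 in each of these comparisons, and 19.6% were higher in young mutants, 27% lower at 15 °C and 39.7% lower at 25 °C. dpy-7 averaged 1.42 ± 0.167 CPM in mutants at 25 °C and 3.16 ± 0.276 CPM in the wild type (SD, n = 5 each), a log2 fold change of -1.13. dpy-7 is also one of the epidermal markers. dpy-2 was lower in mutants by -0.50 at 15 °C and by -0.94 at 25 °C, and dpy-10 was higher by 0.68 in young mutants and lower by -0.40 at 15 °C.

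Patterns across the 40 libraries were alike for some members and not for others, as a description that carries the differences between groups with it. Pearson's r of log2 CPM was 0.99 between cnc-2 and cnc-4, 0.97 between nlp-31 and nlp-34, 0.94 between nlp-29 and nlp-31, and 0.98 between abf-2 and cnc-4. nlp-28 was most like nlp-30, at 0.45, and its r with cnc-1 was -0.33. Among 9861 other genes, those most like the mean of the cnc genes were R07C12.1 (0.991), ttr-51 (0.990), C25E10.8 (0.988), far-7 (0.988) and W02A2.9 (0.987). Those most like the mean of the nlp genes were F15E6.3 (0.958), ZC239.22 (0.949), K08H2.10 (0.945), E04F6.4 (0.940) and K02D3.1 (0.937). For abf-2 they were Y25C1A.14 (0.991), dct-8 (0.990), ttr-45 (0.989), F08B12.4 (0.986) and F57G4.11 (0.985).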

How the data were processed

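Whole-animal RNA was prepared as stranded poly(A) libraries, per the labels' protocols. Per the submitters' processing notes, bcl2fastq, HISAT2 2.2.1, featureCounts and DESeq2 1.31.16 were used with genome build ce10; settings for strand and for reads matching several genes are not given in the sources used here. The authors deposited 9 tables of 42048 features whose 90 sample columns hold signal per gene, divided within each table by size factors, beside log2 fold changes and p-values that the authors computed; the deposited log2 values and p-values entered only a check of column names. Whole reads were recovered from the signal (100.0% whole within 0.001, size factors 0.794 to 1.253). Of the column pairs across tables, 70 were identical in reads, and 10 columns of the mutant table for 25 and 20 °C matched the other group and were exchanged.

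Each comparison with a table was tested there with limma 3.58.1 in R 4.3.3 (trend and robust options) after taking log2 of the value plus 1, a scale on which a fold understates changes of low genes. The other 3 pairs and the interactions used edgeR 4.0.16 (quasi-likelihood, TMM) on recovered reads. The filter asked for 10 or more in 5 or more libraries, and a call for a p under 0.05 after Benjamini-Hochberg adjustment over all genes tested. Intervals of 95% use the t quantile of each fit. For edgeR the SE is approximate, the size of the log2 value divided by the square root of the F statistic. It is not reliable where a group has almost no reads, as for cnc-1 in young animals. Both tests were tried on simulated data. Named genes were the 10 members, octr-1, the 3 smallest p of each list per genotype comparison and the 5 genes of most like pattern per family among genes averaging 2 or more on the log2(CPM + 1) scale. The members and lists were chosen with earlier results of these data known. Alternatives were edgeR with TMM or RLE, limma on log2 CPM, DESeq2 1.42.0, no filter, a pseudocount of 0.1, a replicate block, all 40 libraries in 1 fit, library size scaling, leaving out each library, and names as given. numpy 2.4.6, pandas 2.3.3 and matplotlib 3.10.9 made the tables and plots.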

Additional observations from a re-analysis of the deposited data

Results flagged for a closer look

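In 5 of 79 groups of 5 libraries, 1 library stood apart by Dixon's criterion, of which chance gives about 1 in 20. cnc-2 had its lowest value, 15.4 CPM, in replicate 1 of mutants at 20 °C, where the others had 17.8 to 18.5 CPM. nlp-27 was highest in replicate 1 of the young wild type, at 55.1 CPM. nlp-28 was highest in replicate 2 of the young wild type, at 13.1 CPM, and in replicate 1 of the wild type at 25 °C, at 29.7 CPM. nlp-34 was lowest in replicate 2 of the wild type at 15 °C, at 14.6 CPM. The 5 do not include cnc-1 in young mutants, where replicate 5 had 1 read and the other libraries had 0.

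The difference between octr-1 mutants and the wild type was called as changed between conditions in 25 tests of an interaction in edgeR, with 10 genes tested per comparison. These 25 are not independent. The comparisons share libraries, and that of 15 against 25 °C uses only groups that the other temperature comparisons also use. Of all genes tested, 27.6% were called for old against young and 54.5% for 25 against 20 °C. For 15 against 20 °C the share was 20.3%, and for 15 against 25 °C it was 57.0%. The calls of nlp-30 with age and of nlp-34 for 25 against 20 °C were lost under several alternatives, as given above. That of nlp-29 for 25 against 20 °C was lost under library size scaling (adjusted p = 0.105). That of nlp-29 for 15 against 25 °C was lost under library size scaling (0.235) and in the edgeR fit of all 40 libraries (0.0543). For old against young at 20 °C, the log2 interaction was -1.02 in nlp-29 and -1.05 in nlp-30. For 25 against 20 °C it was 1.40 in cnc-1, -0.54 in cnc-2, -0.54 in cnc-4, -1.60 in nlp-28, -0.48 in nlp-29, -0.21 in nlp-34 and -0.39 in abf-2. For 15 against 20 °C it was -2.38 in cnc-1, -1.34 in cnc-2, -1.11 in cnc-4, -1.10 in nlp-27, -0.86 in nlp-31, -1.54 in nlp-34 and -1.27 in abf-2. For 15 against 25 °C it was -3.73 in cnc-1, -0.75 in cnc-2, -0.52 in cnc-4, -0.87 in nlp-27, 1.62 in nlp-28, 0.38 in nlp-29, -0.75 in nlp-31, -1.29 in nlp-34 and -0.84 in abf-2.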

How the results depend on the processing

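Of 3015 values recomputed, 2882 kept their direction and side of the threshold, 51 lost a call, 39 gained one and 43 changed sign, 1 of these a called value. The 10 lower genes at 15 °C, the 9 lower genes of mutants at 15 against 20 °C and the 7 lower interactions for 15 against 20 °C and for 15 against 25 °C were counted under all alternatives that keep the corrected names. With names as given, mutants at 25 against 20 °C had 7 genes higher and 3 lower, with cnc-1 at -1.78, cnc-2 0.50, cnc-4 0.18, nlp-27 -0.19, nlp-28 1.22, nlp-29 0.87, nlp-30 0.49, nlp-31 0.56, nlp-34 0.62 and abf-2 -0.48. Library size scaling gave 1 gene higher in mutants at 15 against 25 °C and 1 higher interaction for 15 against 25 °C (1 also with all 40 libraries), cnc-4 0.0397 for mutants at 25 against 20 °C, nlp-27 0.45 for age in the wild type and nlp-31 0.0836 in the interaction for 25 against 20 °C. It moved the share of higher calls among all genes called, at 25 °C, to 69.7% (48.1% as reported), in young animals to 78.5% (44.9%), for mutants at 25 against 20 °C to 67.1% (49.9%) and at 15 against 25 °C to 38.4% (48.9%), with age to 78.1% in mutants (52.9%) and 81.8% in the wild type (54.0%), and for the interactions to 68.8% at 25 against 20 °C (51.4%), 26.6% at 15 against 25 °C (46.6%) and 23.7% with age (39.7%). RLE, all 40 libraries and DESeq2 moved it for the interaction at 15 against 20 °C to 50.7%, 54.0% and 51.9% (38.7%), and all 40 libraries in young animals to 57.3%. With all 40 libraries cnc-2 of the wild type at 15 against 20 °C was -0.0031. For age in the wild type RLE, DESeq2 and no filter each called 1 gene lower. The interaction with age had 1 gene higher under RLE and DESeq2, and 2 higher, 1 lower and nlp-34 at 0.21 under limma. The interaction of nlp-30 for 25 against 20 °C was -0.0263 under RLE, -0.0121 under limma, -0.0475 with no filter, -0.0048 with the replicate block, -0.0239 with all 40 libraries and -0.0311 under DESeq2. That of nlp-28 for 15 against 20 °C was 0.0111 under RLE, 0.0212 with all 40 libraries and 0.0118 under DESeq2. The causes were not tested. Leaving out 1 library each gave 2 to 4 genes higher in young mutants and 0 to 1 higher and 1 to 3 lower interactions with age. It gave cnc-2 -0.0646 to 0.0358 between genotypes at 20 °C and -0.032 to 0.0675 in the wild type at 15 against 20 °C, and nlp-30 of the wild type at 15 against 25 °C -0.0099 to 0.16. Interactions ran from -0.41 to 0.33 for nlp-34 with age, -0.14 to 0.11 for nlp-30 at 25 against 20 °C and -0.0945 to 0.0533 for nlp-28 at 15 against 20 °C. Same-numbered replicates did not deviate together in all 5 pairs of any comparison, and the replicate block ended the calls of nlp-27 for mutants at 25 against 20 °C (adjusted p = 0.0562), nlp-29 for the wild type at 25 against 20 °C (0.059) and nlp-34 in the interaction for 25 against 20 °C (0.0505), and gained nlp-29 at 20 °C (0.00797) and nlp-28 in the interaction with age (0.0336). Counts in young animals limit abf-2 and cnc-1 most. nlp-34, cnc-4 and nlp-30 were also low in the young wild type, with 50, 57 and 66 reads over the group.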
